A study of Homo sapiens with 45 samples.

Results

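The APOBEC3 genes encode 7 cytidine deaminases and lie side by side on human chromosome 22. The members APOBEC3A, APOBEC3B, APOBEC3C, APOBEC3D, APOBEC3F, APOBEC3G and APOBEC3H were chosen by symbol from the 64485 genes of the count table, and all 7 were found there. They were read in 45 libraries of total RNA depleted of ribosomal RNA, 3 from each of 15 breast cancer cell lines that the labels give as wild-type, with no treatment. Of these established lines, BT-549 and the 7 lines with names in HCC were grown in RPMI 1640, the 5 lines with names in MDA-MB in L-15, BT-20 in EMEM and Hs578T in DMEM. Every medium held 10% serum and 100 U/mL penicillin. BT-20 and BT-549 also received 2 µg/mL insulin, and MDA-MB-436 received 10 µg/mL insulin with 16 µg/mL glutathione. Whether Hs578T received insulin is not clear from the labels. No label says that replicates were separate cultures. The p-values therefore rest on the spread between these libraries, and that spread may be technical.

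APOBEC3 enzymes remove the amino group from cytosine in single-stranded DNA, which turns it into uracil. They are known as restriction factors against retroviruses and retrotransposons, and several are interferon-inducible in blood cells. APOBEC3A and APOBEC3B are also known for a mutational signature in tumour genomes, breast cancer included. Each enzyme carries 1 or 2 zinc-binding domains, in which a histidine and a glutamate form the core of the active site.

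The 7 genes all lie on the + strand within chr22:38952741-39104067 (GRCh38, GENCODE 29), a stretch of 151 kb. APOBEC3A, APOBEC3C and APOBEC3H encode 1 zinc motif in 199, 190 and 183 codons. APOBEC3B, APOBEC3D, APOBEC3F and APOBEC3G encode 2 in 382, 386, 373 and 384 codons. The coding windows of 60 bases around the motif are shown because their likeness bears on how reads can be assigned to single members. Each lies within 1 coding exon and is written 5′ to 3′ on the + strand, with the codons from the zinc-binding histidine to the catalytic glutamate in capitals.
APOBEC3A, chr22:38961402-38961461: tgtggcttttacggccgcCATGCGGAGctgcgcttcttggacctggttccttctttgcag
APOBEC3B domain 2, chr22:38991347-38991406: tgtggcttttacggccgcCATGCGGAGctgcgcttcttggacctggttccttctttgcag
APOBEC3G domain 2, chr22:39086294-39086353: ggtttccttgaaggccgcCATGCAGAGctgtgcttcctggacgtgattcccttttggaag
APOBEC3B domain 1, chr22:38985815-38985874: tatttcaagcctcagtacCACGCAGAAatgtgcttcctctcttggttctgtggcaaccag
APOBEC3C, chr22:39017769-39017828: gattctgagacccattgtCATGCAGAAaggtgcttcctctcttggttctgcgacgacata
APOBEC3F domain 2, chr22:39052077-39052136: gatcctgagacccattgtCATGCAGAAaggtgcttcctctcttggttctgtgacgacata

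The APOBEC3A window and that of the second APOBEC3B domain were the same in 60 of 60 bases. The second APOBEC3G domain shared 45 of 60 bases with it, and the first APOBEC3B domain shared 24. The APOBEC3C window shared 58 of 60 bases with the second domains of APOBEC3D and APOBEC3F, which did not differ from each other. Over whole transcripts, 30.7% of the 75-base stretches of APOBEC3B also occur in another member, against 21.1% for APOBEC3A, 16.5% for APOBEC3F, 11% for APOBEC3D, 5.98% for APOBEC3G, 0.249% for APOBEC3C and 0 for APOBEC3H. The APOBEC3A model of this annotation also reaches across APOBEC3B, with 348 exonic bases in common (14.8% of APOBEC3A and 18.4% of APOBEC3B). How the authors counted reads that fit several genes is not given in the sources used here, so counts of APOBEC3A and of APOBEC3B carry this uncertainty, and those of APOBEC3D and APOBEC3F do so to a smaller extent.

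Total counts ran from 2312138 to 14653677 per library (median 6263573), and the library of fewest counts was Hs578T replicate 2. No pair of libraries held identical values. Sequencing runs 1 and 2 held 4 lines (HCC38, HCC1143, MDA-MB-231 and Hs578T), and runs 3, 4 and 5 held 1 library each of the remaining 11, so a comparison between these sets of lines cannot be told apart from one between runs. The labels call every line epithelial, but the summed level of 7 epithelial markers (EPCAM, CDH1, KRT8, KRT18, KRT19, CLDN4 and ESRP1) ran from 9380 CPM (counts scaled to a common library size) in BT-20 to 10.4 in BT-549. The sum of 11 blood cell markers lay between 3.97 and 35.3 CPM, of which CD14 made up 33.3 CPM in HCC70, the highest line. Over all 45 libraries these markers ran from 10 counts (NKG7, of T and NK cells) to 1994 (CD14). PTPRC, of leukocytes in general, had 596, with a median of 2.0 CPM over the lines.

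APOBEC3B and APOBEC3C made up most of the APOBEC3 RNA, and the lines differed in which of these was the more abundant. Levels were put on one scale per length, as CPM per kilobase of exon, and each member was given as a share of the sum over the 7 genes. APOBEC3B had the largest share in 11 lines and APOBEC3C in 4. The APOBEC3B share was 97.3% ± 1.04 (SD, n = 3) in MDA-MB-453, 96.8% ± 0.596 in BT-549 and 96.0% ± 1.30 in HCC1143. In HCC1395, APOBEC3C held 73.4% ± 1.28 and APOBEC3B 1.38% ± 0.373. HCC38 had no APOBEC3B share, and APOBEC3C (45.5% ± 10.0) and APOBEC3G (42.6% ± 6.17) together held most of its sum. The sum over the 7 genes was highest in HCC1143, with 49.2 ± 23.2 CPM per kilobase, and lowest in HCC70, with 2.49 ± 0.368. As the RNA comes from whole cultures, fewer expressing cells and less RNA per cell cannot be told apart.

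**Figure D1:**
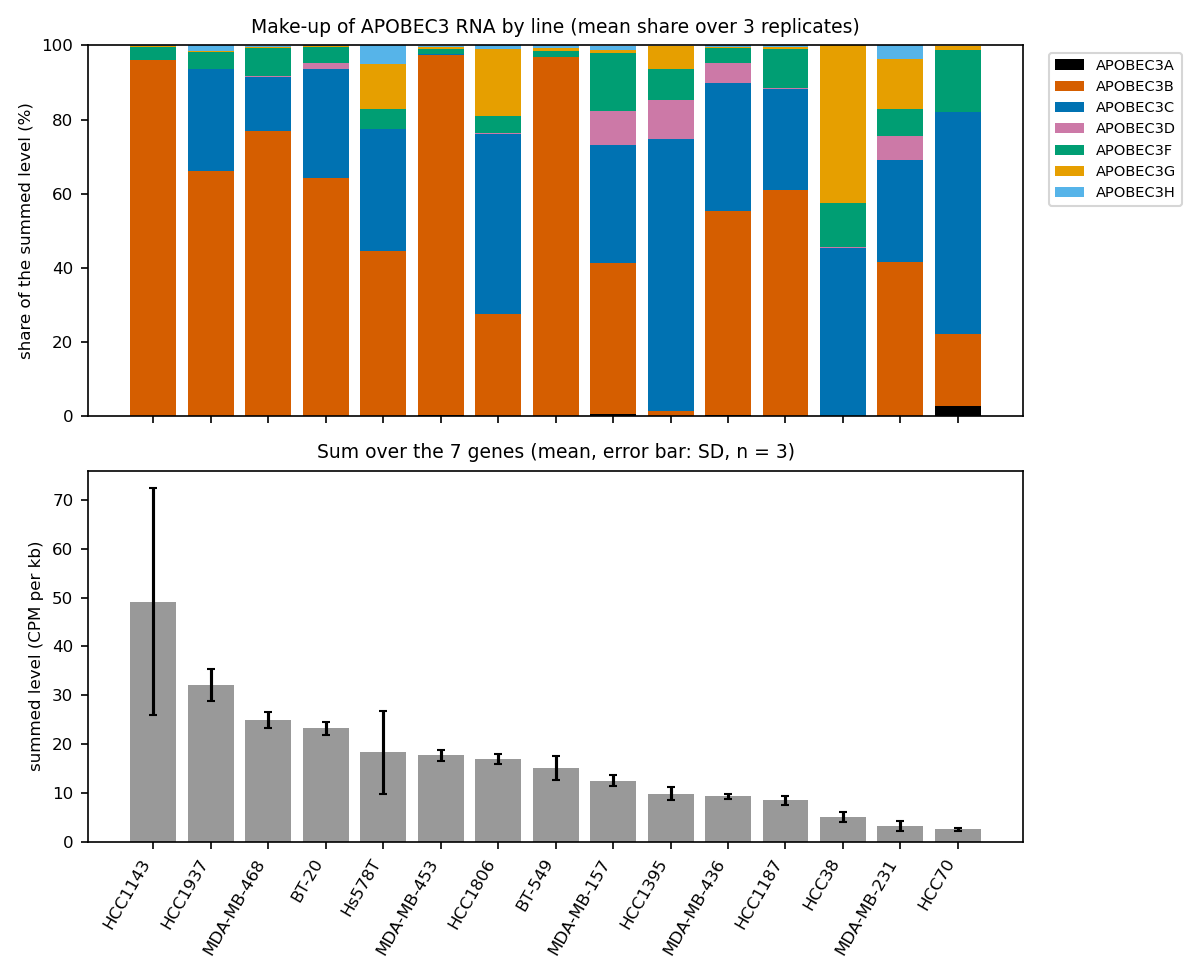
Top, the share of each APOBEC3 gene in the sum over the 7 genes in each of 15 lines, in percent of CPM per kilobase (mean over 3 replicates); bottom, that sum in CPM per kilobase (mean, error bars SD, n = 3). APOBEC3B fills over 95% of the bars of HCC1143, MDA-MB-453 and BT-549, while APOBEC3C is the largest share in HCC1806, HCC1395, HCC38 and HCC70.

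Of the 7 members, 5 passed the expression filter and were tested, and APOBEC3A and APOBEC3H did not pass. All 5 tested members differed among the 15 lines at an adjusted p under 0.05 in edgeR's quasi-likelihood test with Benjamini-Hochberg adjustment over all genes, with values from 2.52e-26 (APOBEC3B) to 2.32e-10 (APOBEC3F). The same held for 98.2% of all 20587 genes tested. When each line was set against the mean of the other 14 lines, a call needed an adjusted p under 0.05 and a log2 fold change of at least 1. Of the 75 comparisons of 5 members in 15 lines, 29 were called higher and 13 lower, against 16.2% and 12.5% of all genes in all lines. By line, the share of all genes called higher ran from 13.3% (BT-549) to 20% (MDA-MB-157) and 20.9% (Hs578T), and the share called lower from 9.19% (MDA-MB-468), 9.56% (Hs578T) and 10.2% (HCC38) to 22.9% (HCC70). Where another line had 0 counts of the gene, this contrast left the average of the other lines undetermined, which concerned APOBEC3B (1 line at 0) and APOBEC3D (4 lines at 0). For these members each line was also set against the mean of the lines with at least 1 count, an alternative chosen after seeing the data. APOBEC3B was then called higher in 6 lines and lower in 4, against 16.3% and 12.7% of all genes over the same averages. APOBEC3D was called higher in 4 lines and lower in 7, against 16.3% and 12.9%. With the unchanged calls of the other members, this gave 27 higher and 23 lower among the 75 comparisons.

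**Figure D2:**
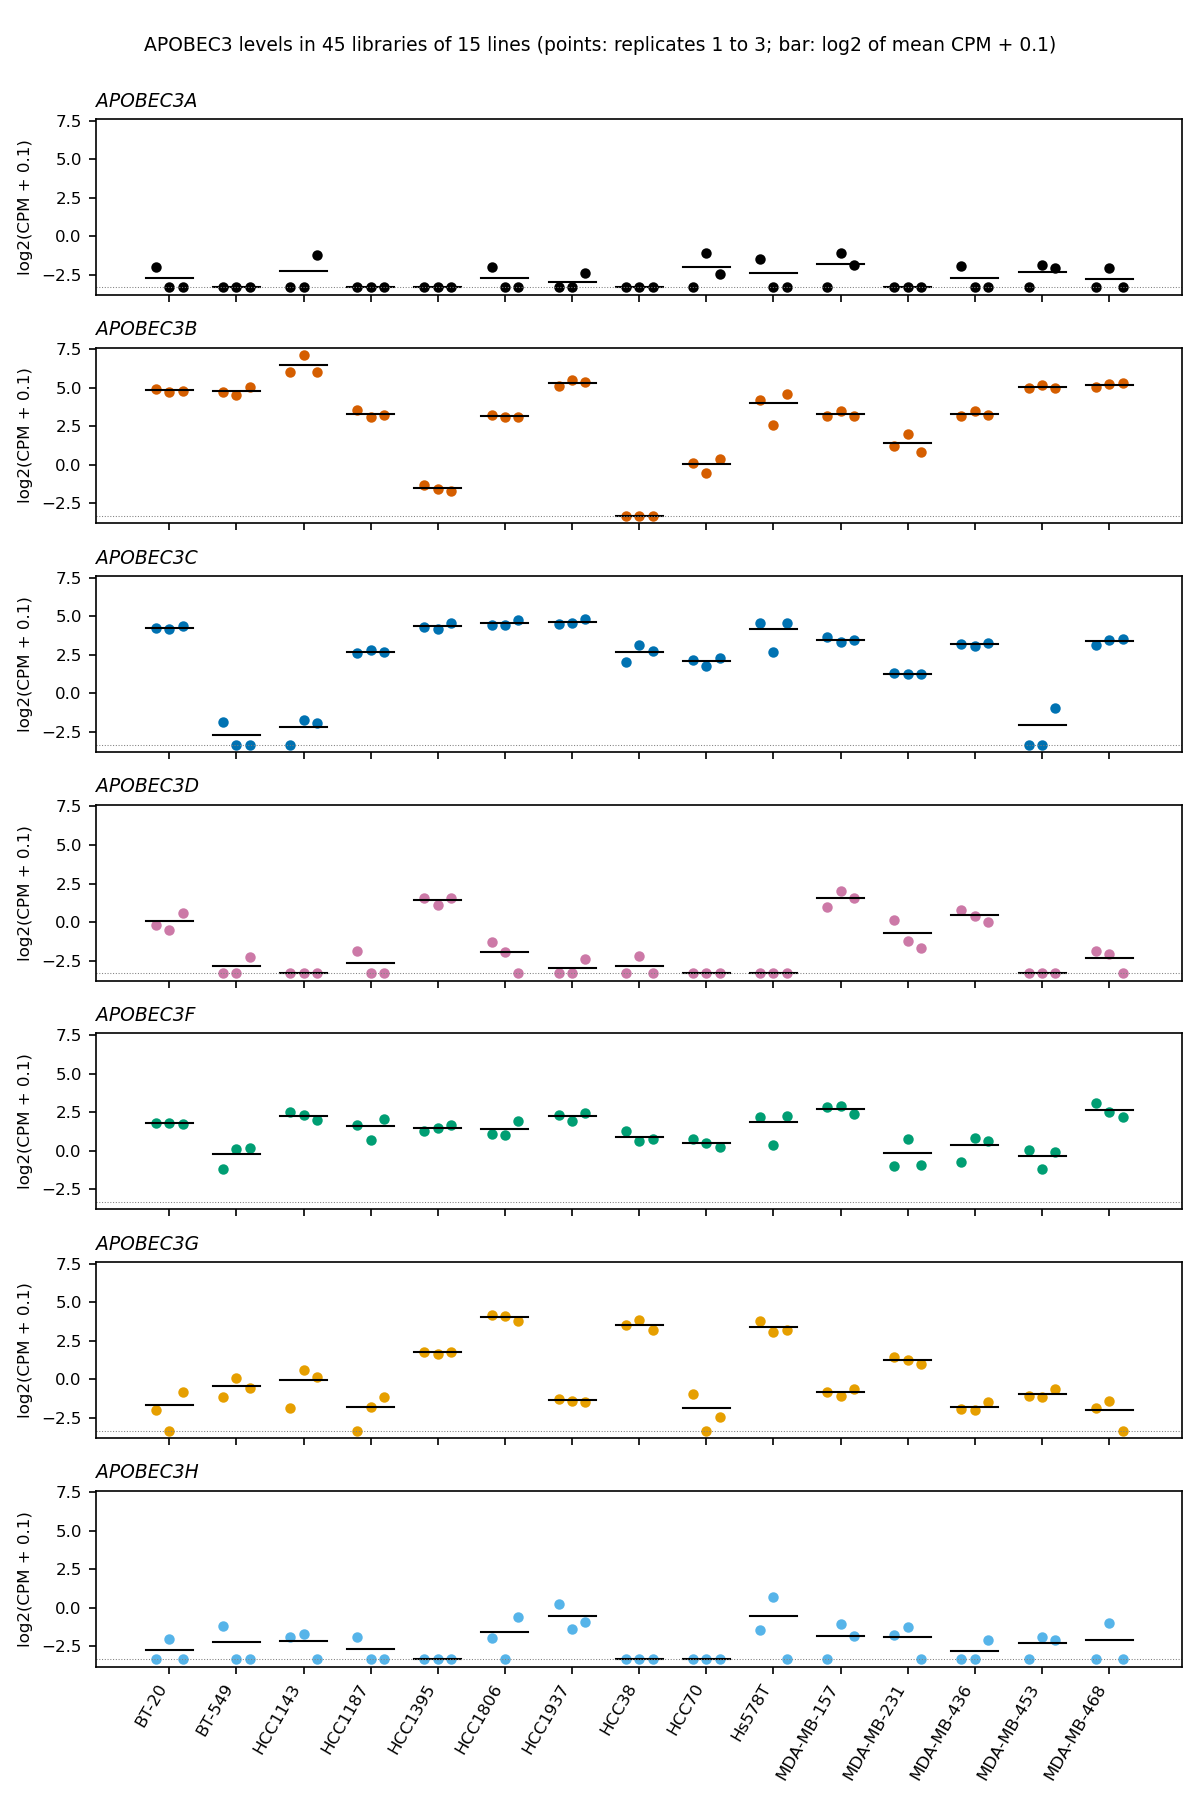
Level of each APOBEC3 gene in every library, as log2(CPM + 0.1), by cell line; points are replicates 1 to 3 from left to right, bars are log2 of the line's mean CPM plus 0.1, and the dotted line is a level of 0. APOBEC3B is at 0 in all 3 HCC38 libraries, APOBEC3C is close to 0 in BT-549, HCC1143 and MDA-MB-453, and APOBEC3F is detected in all 45.

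APOBEC3B, a nuclear member with 2 domains, spanned the widest range. HCC1143 held 64.9, 140 and 64.6 CPM in its 3 replicates (90.0 ± 43.6, SD, n = 3), above every library of the other lines. The second replicate had more than the others of its line. It was sequenced in run 1 and the others in run 2, so replicate and run cannot be told apart. Next came HCC1937 with 40.2 ± 5.99 CPM, MDA-MB-468 with 36.4 ± 3.30, MDA-MB-453 with 32.8 ± 2.23, BT-20 with 28.1 ± 2.19 and BT-549 with 27.7 ± 4.83. No neighbouring pair among these 5 passed the test, and pairs farther apart in the order were not tested. Hs578T held 18.4, 6.0 and 24.1 CPM (16.1 ± 9.24), and here too replicate 2 was the one from run 1. HCC1187, MDA-MB-436, MDA-MB-157 and HCC1806 lay together between 9.78 and 8.80 CPM. Below them, MDA-MB-231 held 2.22, 3.90 and 1.68 CPM and HCC70 held 0.997, 0.600 and 1.18. HCC1395 had 2, 2 and 2 counts. HCC38 had 0, 0 and 0 counts of 22642171 in all.

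Relative to the mean of the lines with APOBEC3B counts, the log2 fold change of APOBEC3B was 3.28 ± 0.14 (SE) in HCC1143, with an edgeR adjusted p of 1.29e-23. It was 3.92 ± 0.15 when HCC38 was part of the average, and 6.49 ± 0.39 against the other lines of runs 1 and 2 alone, where HCC38 is 1 of 3. BT-20, BT-549, HCC1937, MDA-MB-453 and MDA-MB-468 were also called higher on both averages, with values from 1.46 to 2.03 over the lines with counts and from 2.11 to 2.68 over all lines. Hs578T was called higher only with HCC38 in the average, at 1.33 ± 0.22 (edgeR adjusted p 1.46e-06), and stood at 0.68 ± 0.20 without it. Against the lines of its own runs, HCC38 included, it stood at 3.32 ± 0.56. With replicate 3 left out of every line, Hs578T stood at 0.95 with HCC38 in the average. HCC38 was called lower on both. MDA-MB-231 at -2.16 ± 0.30 (edgeR adjusted p 4.08e-08), HCC70 at -3.75 ± 0.33 (1.18e-13) and HCC1395 at -5.78 ± 0.42 (4.67e-16) were called lower over the lines with counts. Over all lines edgeR made no call for them, as the average was undetermined. DESeq2 called them lower against all other lines, at -1.48 ± 0.30, -3.24 ± 0.35 and -5.29 ± 0.62 in the same order. Its adjusted p were 2.53e-06, 9.97e-20 and 1.15e-16. Within their own runs, edgeR also called HCC70 (-3.66 ± 0.21) and HCC1395 (-5.72 ± 0.25) lower.

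For the lines with few reads, counts summed over the 3 replicates were set against the median of the other lines, without scaling between libraries. APOBEC3B in HCC1395 was 60.8-fold lower, with a 95% Poisson interval of 27.9 to 166. APOBEC3B in HCC38 was at least 110-fold lower, from a limit of 3 counts over the summed libraries. Such intervals and limits cover counting error only. Over all 5 members, 11 of 70 pairs of lines next to each other in the order of the member's level passed edgeR's test. Over the same pairs 55.1% of all genes passed. The pairs were chosen as closest in the member's own level, so its steps are small by design and the 2 shares cannot be compared. In the order of APOBEC3B levels, 6 of 14 pairs passed. The 6 included the steps from HCC1143 to HCC1937 (log2 difference 1.16 ± 0.23, edgeR adjusted p 3.65e-05), from HCC1806 to MDA-MB-231 (1.71 ± 0.35, 6.56e-05), from MDA-MB-231 to HCC70 (1.48 ± 0.48, 0.00678) and from HCC70 to HCC1395 (1.88 ± 0.72, 0.0239). The step from HCC1395 to HCC38 missed the threshold (edgeR adjusted p 0.0624), with 6 counts against 0.

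In HCC38 the neighbours of APOBEC3B on both sides were measured. CBX6, the gene before the cluster, held 47.9 ± 4.89 CPM (median of the other lines 61.8). APOBEC3C, the gene after APOBEC3B, held 6.45 ± 2.27 CPM (median 9.68), and APOBEC3G held 11.4 ± 2.53 (median 0.444), the second highest of the 15 lines. Of the 12 neighbours outside the family, 10 lay below the median of the other lines in HCC38, and in 9 HCC38 ranked 12 or lower of the 15 lines. The same counts were not made over all genes, so whether they are unusual for HCC38 was not tested. APOBEC3A and APOBEC3H had no reads in HCC38, but both were close to 0 in all lines. APOBEC3B-AS1, an antisense transcript that overlaps 244 exonic bases of APOBEC3B, had 242 counts in the 45 libraries and none in HCC38, HCC1395 and MDA-MB-231. Whether the authors counted by strand is not given in the sources used here, so reads of this pair may be mixed.

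**Figure D3:**
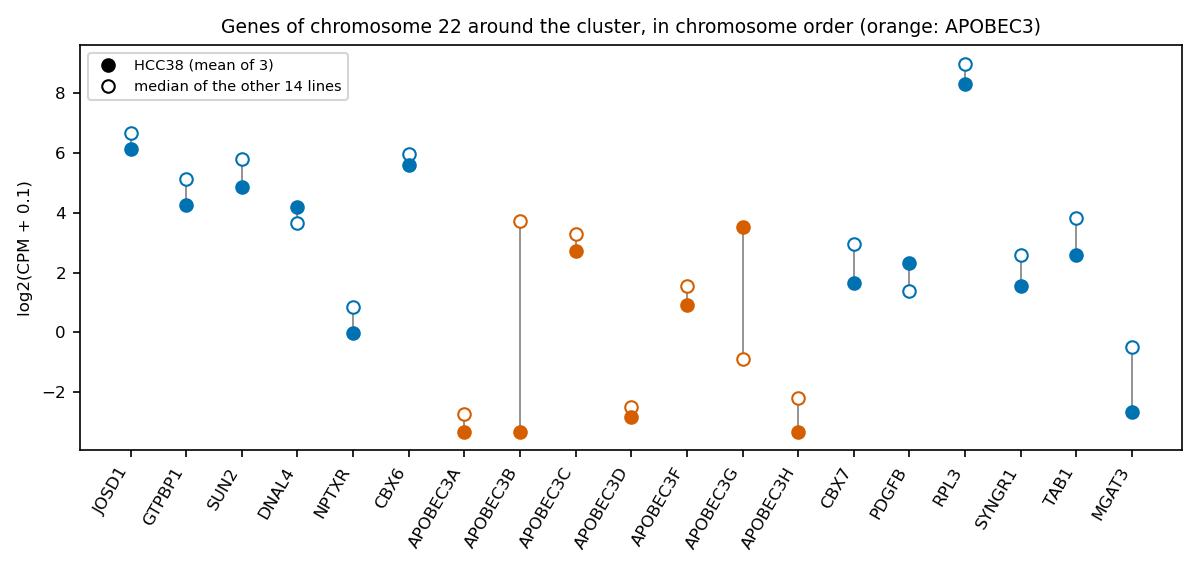
Level in HCC38 (filled, mean of 3 replicates) and median of the other 14 lines (open) for 19 genes in chromosome order, as log2(CPM + 0.1); APOBEC3 genes are orange and their neighbours blue. HCC38 is at 0 CPM for APOBEC3B, where the other lines have a median of 13 CPM, and at 11.4 CPM for APOBEC3G, where their median is 0.444.

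APOBEC3C, a member with 1 domain known for weak activity against retroviruses, was near 0 in 3 lines and well above in the rest. BT-549 had 1, 0 and 0 counts, HCC1143 had 0, 1 and 1, and MDA-MB-453 had 0, 0 and 3. In the other 12 lines the lowest library held 11 counts. Summed over replicates, APOBEC3C was 224-fold lower than the median of the other lines in BT-549 (95% Poisson interval 40.2 to 8840), 80.5-fold lower in HCC1143 (22.3 to 665) and 56.6-fold lower in MDA-MB-453 (19.4 to 274). All 3 were called lower, with log2 fold changes of -6.44 ± 0.66, -5.31 ± 0.79 and -4.89 ± 0.74 and edgeR adjusted p of 1.47e-11, 1.31e-07 and 1.52e-07. Leaving out replicate 1 or 3 of every line brought another of these lines to 0 counts, and the call of the others then could not be made. These are the 3 lines in which APOBEC3B held over 95% of the sum, a share that a low APOBEC3C level itself raises.

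At the upper end, HCC1937 held 22.4, 23.6 and 28.9 CPM of APOBEC3C (25.0 ± 3.43), HCC1806 held 23.3 ± 2.90, HCC1395 held 20.2 ± 3.04, BT-20 held 19.2 ± 1.27 and Hs578T held 17.7 ± 9.85. No neighbours among these 5 differed by the test. Of the 8 lines called higher, these 5 had log2 fold changes of 2.25 to 2.73, and MDA-MB-157, MDA-MB-468 and MDA-MB-436 had 1.49, 1.36 and 1.15. When compared only with the lines of its own runs, MDA-MB-436 stood at 0.87 ± 0.18, under the fold needed for a call, and Hs578T at 3.85 ± 0.35, where it was 2.25 against all lines. Only 3 of 14 neighbouring pairs passed for APOBEC3C: Hs578T above MDA-MB-157, HCC70 above MDA-MB-231 and MDA-MB-231 above MDA-MB-453. The last of these was the widest, at 3.69 ± 0.70 (edgeR adjusted p 1.2e-05).

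APOBEC3F, an antiviral member with 2 domains, was the only one with reads in all 45 libraries, from 2 to 60 counts. It ran from 6.98, 7.23 and 5.16 CPM in MDA-MB-157 (6.46 ± 1.13) to 0.944, 0.348 and 0.823 in MDA-MB-453 (0.705 ± 0.315). The highest line held 9.16-fold the level of the lowest. No neighbouring pair of lines passed the test. MDA-MB-157 (1.57 ± 0.25), MDA-MB-468 (1.49 ± 0.25), HCC1143 (1.08 ± 0.27) and HCC1937 (1.06 ± 0.25) were called higher, with edgeR adjusted p from 5.12e-07 to 0.000731. BT-549 (-1.62 ± 0.39), MDA-MB-231 (-1.51 ± 0.41) and MDA-MB-453 (-1.81 ± 0.41) were called lower, with edgeR adjusted p of 0.000408, 0.00176 and 0.000193. MDA-MB-436 (-0.99) lay just short of the fold and was called lower with the run as a block (-1.0 ± 0.35), without the expression filter (-1.03 ± 0.35), within its own runs (-1.02 ± 0.33) and without its replicate 2 (-1.26 ± 0.45) or 3 (-1.16 ± 0.45). The call in HCC1143 was lost with the run as a block (0.95 ± 0.27), without the expression filter (0.96 ± 0.27) and without its replicate 1 (0.94 ± 0.34), and that in HCC1937 without its replicate 3 (0.94 ± 0.32). MDA-MB-231 missed the threshold with replicate 1 or 3 left out of every line, with edgeR adjusted p of 0.0551 and 0.0794.

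APOBEC3D, which also has 2 domains, was found at low level in a few lines. MDA-MB-157 had 12, 21 and 16 counts (2.92 CPM), HCC1395 had 19, 17 and 28 (2.61), MDA-MB-436 had 10, 8 and 7 (1.25) and BT-20 had 5, 4 and 9 (0.934). MDA-MB-231 had 5, 2 and 1 counts. The other 10 lines had 0 to 3 counts in all 3 libraries together, and HCC1143, HCC70, Hs578T and MDA-MB-453 had none. Relative to the lines with counts, MDA-MB-157 (3.59 ± 0.40), HCC1395 (3.43 ± 0.39), MDA-MB-436 (2.26 ± 0.46) and BT-20 (1.82 ± 0.49) were called higher, with edgeR adjusted p from 6.68e-10 to 0.00185. MDA-MB-231 was called higher only against all other lines, at 2.00 ± 0.56 (edgeR adjusted p 0.00291). It stood at 0.88 ± 0.56 against the lines with counts (0.196), and the call also ended without its replicate 1 (1.16 ± 0.59, 0.114). Over the lines with counts, 7 lines were called lower, on 0 or 1 counts each. The median of the other lines was itself only 0.0812 CPM. Against it the lines with 1 count were 1.8-fold (BT-549, 95% Poisson interval 0.322 to 70.9) to 2.05-fold lower (HCC1937, 0.368 to 80.9). For the lines with 0 counts the limit of 3 counts lies above this median and gives no fold.

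APOBEC3G, the member best known for blocking HIV that lacks Vif, was high in 3 lines. HCC1806 held 17.8, 17.5 and 13.9 CPM (16.4 ± 2.18), HCC38 held 11.2, 14.1 and 9.04 (11.4 ± 2.53) and Hs578T held 13.7, 8.39 and 9.11 (10.4 ± 2.86). The range of HCC38 overlapped those of the other two, and neither neighbouring pair passed the test. HCC1806 lay above Hs578T in all libraries, a pair that was not tested. HCC1395 followed with 3.35, 3.02 and 3.39 CPM and MDA-MB-231 with 2.62, 2.28 and 1.89. The other 10 lines had at most 0.873 CPM, and every library of these lay under every library of the 5 lines above. The steps from Hs578T to HCC1395 (1.69 ± 0.33, edgeR adjusted p 2.94e-05) and from MDA-MB-231 to HCC1143 (1.40 ± 0.49, 0.0147) were the only pairs of neighbours that passed.

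Those 5 lines were called higher in APOBEC3G, at 4.51 ± 0.20 in HCC1806, 3.97 ± 0.22 in HCC38, 3.84 ± 0.23 in Hs578T, 2.02 ± 0.27 in HCC1395 and 1.47 ± 0.33 in MDA-MB-231, with edgeR adjusted p from 4.72e-24 to 0.000192. Within runs 1 and 2, which hold HCC38 and Hs578T, MDA-MB-231 was lower than the other lines (-1.05 ± 0.36, edgeR adjusted p 0.021), and HCC38 and Hs578T stood at 1.99 ± 0.28 and 1.97 ± 0.28. Within runs 3 to 5, HCC1806 stood at 5.49 ± 0.22 and HCC1395 at 2.97 ± 0.29. The 6 lines called lower were HCC70, MDA-MB-468, HCC1187, MDA-MB-436, BT-20 and HCC1937, from -2.57 to -1.66, with 3 to 7 counts in all. Against the median of the other lines, their summed counts were only 2.04-fold lower in HCC1937 (95% Poisson interval 0.991 to 5.08) to 4.73-fold lower in HCC70 (1.85 to 17.4). Of these 6 lines, HCC1187, MDA-MB-436, BT-20 and HCC1937 missed the threshold within their own runs, with edgeR adjusted p of 0.0539, 0.0519, 0.0802 and 0.191. BT-20 also missed it without replicate 2 of every line (0.0662), and HCC1937 (0.119) and MDA-MB-468 (0.0517) without replicate 3.

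APOBEC3A, a potent deaminase with 1 domain, had 18 counts in the 45 libraries together. No library held more than 3, and 32 held none. APOBEC3H, which stands at the end of the cluster, had 45 counts, at most 7 in a library (HCC1937 replicate 1), and 25 libraries held none. When tested without the expression filter, APOBEC3H differed among lines (edgeR adjusted p 0.0054), while APOBEC3A missed the threshold (edgeR adjusted p 0.599). APOBEC3H was called higher in HCC1937 (2.76 ± 0.64, from 7, 2 and 5 counts) and Hs578T (2.2 ± 0.73, from 2, 5 and 0 counts). HCC1395, HCC38 and HCC70 had 0 counts of it, so here too the average of the other lines was undetermined. The 5 counts in Hs578T came from replicate 2, the library of fewest counts. Other APOBEC genes were also sparse: the RNA-editing APOBEC1 had 45 counts in all, APOBEC2 had 46 and APOBEC4 had 196.

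The members did not vary as one group. Over the 15 lines, the 10 pairs of tested members had a median Pearson r of 0.0736 between their log2 CPM, and 5 of the 10 were positive. These values describe lines that share library preparation and, within run sets, sequencing runs. The highest was APOBEC3C with APOBEC3F (r = 0.539, Spearman rho 0.554, n = 15 lines), which stood at 0.747 without BT-549 and HCC1143. The lowest was APOBEC3B with APOBEC3G (r = -0.456, rho -0.371), which stood at -0.0808 without HCC1395 and HCC38 and so rested on those lines.

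**Figure D4:**
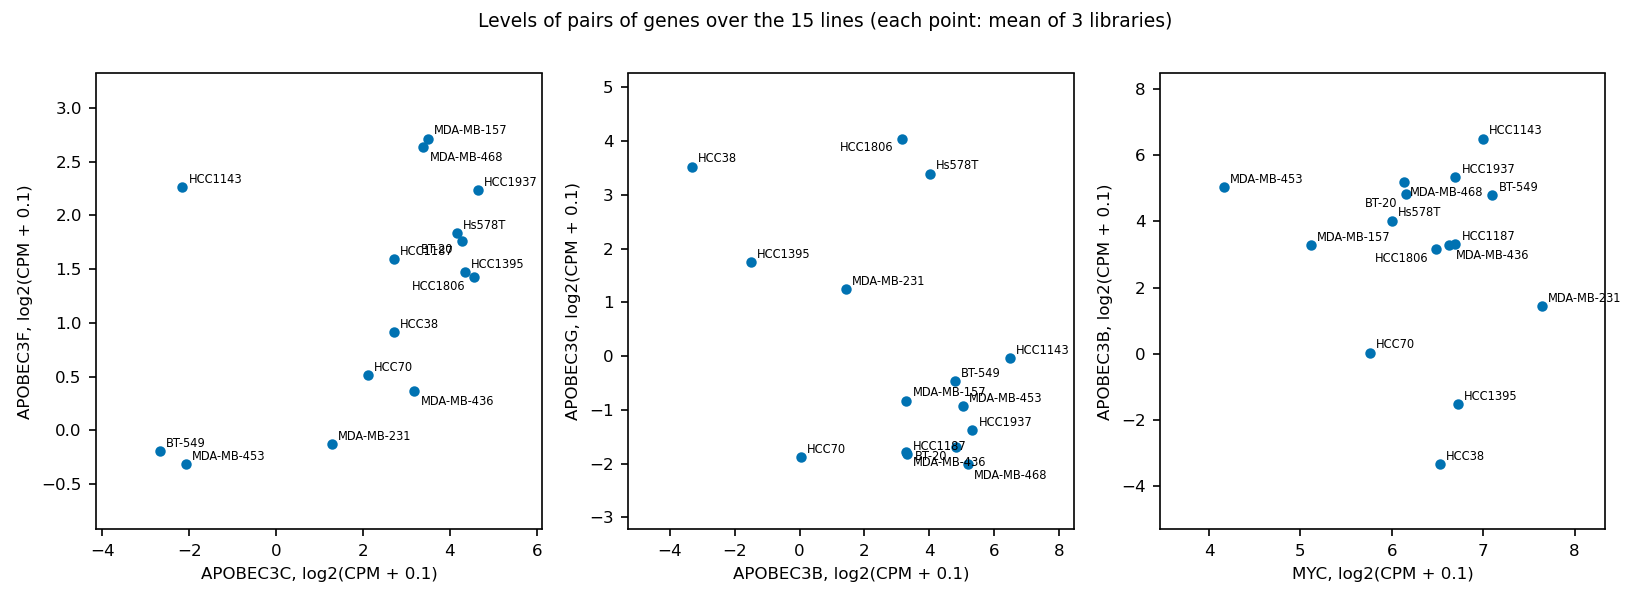
Levels over the 15 lines as log2(mean CPM + 0.1) of 3 libraries, for APOBEC3C and APOBEC3F (left), APOBEC3B and APOBEC3G (middle) and MYC and APOBEC3B (right). HCC1143 stands apart on the left with APOBEC3C at 0.125 CPM and APOBEC3F at 4.69; on the right, MDA-MB-453 and HCC1143 have 17.8 and 127 CPM of MYC and are both among the 5 highest lines for APOBEC3B.

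The study's title names high MYC, a transcription factor that drives growth, so members were tested for a slope on MYC over the 15 lines, with counts summed per line. MYC ran from 17.8 ± 4.01 CPM in MDA-MB-453 to 200 ± 48.4 in MDA-MB-231. No member had a slope that passed edgeR's quasi-likelihood test, either adjusted or at an unadjusted p under 0.05. At the adjusted p, 0.139% of all genes were called falling and 0.00376% rising. The latter is 1 gene of 26615, MYC itself. At the unadjusted p, 1632 genes passed. DESeq2 also called 0 of the members. The slopes per log2 unit of MYC were 0.08 ± 0.59 (SE) for APOBEC3B, 0.10 ± 1.09 for APOBEC3C, -0.28 ± 0.79 for APOBEC3D, -0.20 ± 0.43 for APOBEC3F and 0.86 ± 1.21 for APOBEC3G. These errors are wide: the estimate plus or minus 2 SE spans both -1 and 1 for APOBEC3B, APOBEC3C, APOBEC3D and APOBEC3G.

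L-15 is a medium with galactose as its sugar, and the 5 lines grown in it were compared with 8 in RPMI 1640. No gene was called by edgeR, and no member by DESeq2, and the shares of all genes in edgeR were 0 in both directions, while 2344 genes and no member had an unadjusted p under 0.05. The log2 differences, L-15 minus RPMI 1640, were -0.25 ± 1.21 for APOBEC3B, -0.77 ± 1.13 for APOBEC3C, 0.17 ± 0.62 for APOBEC3F and -2.61 ± 1.25 for APOBEC3G (edgeR adjusted p 0.449). APOBEC3G lay between 0.149 and 2.26 CPM in the L-15 lines and between 0.171 and 16.4 in the RPMI 1640 lines, so the groups overlapped. APOBEC3D did not pass the filter of this comparison.

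Genes that act with, against or upstream of APOBEC3 enzymes were read from lists. Uracil repair genes remove the product of deamination. All 14 differed among lines, as did 98.2% of all genes tested. None of them had a called slope on MYC, against 0.139% of all genes falling and 0.00376% rising. None had a called difference by medium, as was the case for all genes. UNG, the main uracil glycosylase, ran from 18.6 ± 2.02 CPM in MDA-MB-157 to 141 ± 11.1 in HCC1937. SMUG1, a second uracil glycosylase, ran from 9.58 ± 1.95 in MDA-MB-231 to 25.3 ± 4.11 in MDA-MB-453, the narrowest range of the list. Their r with APOBEC3B was -0.339 and -0.299. The median r of the 14 genes with APOBEC3B was -0.06, beside 0.00 over all genes.

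Non-canonical NF-kB signalling and the DREAM and RB complexes, which repress cell cycle genes, are known regulators of APOBEC3B. The 15 NF-kB genes had a median r of -0.22 with APOBEC3B, with none above 0.5, and the 19 DREAM and cell cycle genes had -0.09, again with none above 0.5. Over all genes, 3.25% were above 0.5. RELB and NFKB2, the subunits of the non-canonical arm, had r of -0.216 and -0.411 with APOBEC3B, MYBL2 had -0.0434 and FOXM1 -0.0572. RB1 itself ran from 1.23 ± 1.09 CPM in MDA-MB-468 to 204 ± 24.2 in HCC38, the line without APOBEC3B reads, and its r with APOBEC3B was -0.385. Next highest in RB1 were BT-20 (173 ± 24.5), MDA-MB-453 (140 ± 16.8) and HCC1395 (128 ± 6.87). They held 28.1, 32.8 and 0.251 CPM of APOBEC3B in the same order. Whether RB1 bears on APOBEC3B was not tested.

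The 17 tested interferon genes had median r from -0.06 (APOBEC3B) to -0.37 (APOBEC3D) with the members, and 0 of 17 were above 0.5 with any. BT-549 replicate 3 stood apart in this list, with a summed level of 6190 CPM against 795 and 732 in replicates 1 and 2, and with IFIT1, an antiviral RNA-binding protein, at 605 CPM against 36.8 and 27.1. In the same 3 libraries APOBEC3B was at 26.8, 23.4 and 33.0 CPM, APOBEC3F at 0.344, 0.970 and 1.01, and APOBEC3G at 0.344, 0.970 and 0.562. APOBEC3B and APOBEC3F were highest and APOBEC3G was not highest in the replicate with high interferon genes. For APOBEC3F this rested on 2, 6 and 9 counts, with little between replicates 2 and 3. Replicate 3 was also the only BT-549 library of run 5, so replicate and run cannot be told apart. The 12 other restriction factors had median r between -0.22 (APOBEC3G) and 0.12 (APOBEC3F).

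The genes most like each member over the lines were taken from 10902 protein-coding genes outside the cluster with at least 5 CPM on average. For APOBEC3B these were ST3GAL1 (r = 0.760), EP300 (0.735) and CFAP44 (0.724). Without HCC1395 and HCC38, ST3GAL1 stood at 0.290 and EP300 at 0.447, and CFAP44 at 0.762. NECAP2 had the lowest r with APOBEC3B (-0.847, and -0.788 without those lines). For APOBEC3C they were NLRX1 (0.775), SERTAD2 (0.772) and SP140L (0.771), for APOBEC3D SPAG7 (0.865), RPS7 (0.793) and CTC1 (0.789), and for APOBEC3F PLEKHM3 (0.798), NDUFV3 (0.768) and CEBPG (0.751). For APOBEC3G, SPP1, which encodes the secreted protein osteopontin, had the highest r (0.874, and 0.740 without HCC1806 and HCC38), followed by LRRC59 (0.855) and HSP90B1 (0.855), an endoplasmic reticulum chaperone. HSP90B1 held 6850 ± 746 CPM in HCC1806, the line highest in APOBEC3G. With so many genes and 15 lines, values of this size are a description only.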

How the data were processed

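The members and the gene lists were chosen with earlier results of these data known. Per the labels, total RNA was depleted of ribosomal RNA and libraries were made from 1000 ng with ScriptSeq v2. The tools named in the submitters' processing notes are bcl2fastq 2.20.0.422 for demultiplexing, FastQC with MultiQC, Trimmomatic, STAR (build GRCh38.p12) and featureCounts. The authors deposited raw counts per gene. Not given in the sources used here are the strand setting, the annotation release and how reads with several matches were handled. Of 64485 gene identifiers, 58275 (90.4%) were matched to GENCODE 29, without their version, for symbols, positions, exon lengths and sequences.

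From the deposited counts, CPM with TMM scaling and all tests were computed with edgeR 4.0.16 (R 4.3.3), after filterByExpr (minimum count 10, minimum total 15), which kept 20587 genes. Line comparisons used all 45 libraries and 1 shared estimate of spread. The slope on MYC and the comparison of media used counts summed per line, with BT-20 and Hs578T left out of the latter. Tests are two-sided, with Benjamini-Hochberg adjustment over all genes at 0.05, and lines and media also needed a log2 fold change of 1 or more in size. The SE is the absolute estimate over the square root of its F statistic. Fits were tested on simulated counts. Poisson intervals are exact at 95%, and the limit for 0 reads is 3 counts. Correlations used log2 CPM of line sums (prior count 2) and have no test.

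All 7 members were described in every line. Other named genes are a set list (APOBEC1, APOBEC2, APOBEC4, UNG, SMUG1, TDG, MBD4, RELB, NFKB2, IFIT1, ISG15, E2F1, FOXM1, MYBL2, MYC and others not reported here), the most and the least variable gene of each list, and the 3 genes of highest and the 1 of lowest r with each member. Neighbours of the cluster were given for HCC38 because of its APOBEC3B counts. Alternatives were DESeq2 1.42.0, its size factors in edgeR, no expression filter, the run as a block, fits within run sets, and leaving out each replicate or line.

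In 11 lines the replicate number marks a sequencing run that the labels give (runs 3, 4 and 5), so the numbers pair these libraries. Over the 165 pairs of libraries of the same run, deviations from the line means had a median correlation of 0.0562 (-0.177 to 0.331), against -0.0297 between runs.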

Additional observations from a re-analysis of the deposited data

Results flagged for a closer look

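Within the lines of a medium, the highest or lowest line of a member was compared with its nearest neighbour relative to the whole range (Dixon's ratio at 95%). Of 10 groups checked, 3 had a line that stood apart. The rate of about 1 in 20 by chance holds for normally distributed values, which was not checked for these CPM levels. The 3 therefore cannot be set against that rate. APOBEC3B in HCC1143, at 90.0 CPM, stood apart from the other RPMI 1640 lines (ratio 0.553), of which HCC1937 came next at 40.2. APOBEC3D in HCC1395, at 2.61 CPM, stood apart from the other RPMI 1640 lines (ratio 0.939), which had at most 0.159. APOBEC3G in MDA-MB-231, at 2.26 CPM, stood apart from the other L-15 lines (ratio 0.851), which had at most 0.464. Runs 1 and 2 held both HCC1143 and MDA-MB-231. Against the lines of these runs alone, the log2 fold change of APOBEC3G in MDA-MB-231 went from 1.47 to -1.05 and that of APOBEC3B in HCC1143 from 3.92 to 6.49. That of APOBEC3D in HCC1395, from the other runs, stood at 4.14 within its own runs.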

How the results depend on the processing

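All 5 tested members differed among lines under every alternative run, and without the expression filter 6 of 7 did. DESeq2 called 29 comparisons of a line with the others higher and 17 lower. Its gained lower calls were APOBEC3B in HCC1395, HCC70 and MDA-MB-231 and APOBEC3D in HCC70. In edgeR, called comparisons numbered 27 to 30 higher and 8 to 13 lower when a replicate was left out (29 and 13 with all). They numbered 27 and 23 against the lines with at least 1 count of the gene, an alternative added after seeing the data. Without replicate 3 of every line the lower calls fell to 8: APOBEC3C in BT-549 and HCC1143 became undetermined, as a line was then at 0 counts, and APOBEC3F in MDA-MB-231 and APOBEC3G in HCC1937 and MDA-MB-468 missed the threshold. Neighbouring pairs that passed numbered 6 to 10 with a replicate left out, against 11. With the run as a replicate block there were 28 higher and 14 lower calls and 11 neighbouring pairs, and 1 of 42 called values was lost (APOBEC3F in HCC1143, 0.95) and 1 gained (APOBEC3F in MDA-MB-436, -1.0). The line sums allow no block. The median r between members went from 0.0736 to -0.108 without the 2 lines farthest from the median. APOBEC3G in MDA-MB-231 reversed from 1.47 to -1.05 within its own runs. No slope on MYC and no difference by medium was called under any alternative, but signs changed. With a line or replicate left out, slopes ranged from -0.35 to 0.66 for APOBEC3B, -1.15 to 0.71 for APOBEC3C, -0.75 to 1.42 for APOBEC3D, -0.81 to 0.17 for APOBEC3F and -0.12 to 1.26 for APOBEC3G. In runs 3 to 5 alone, slopes were -0.07 for APOBEC3B, 1.25 for APOBEC3C, -0.04 for APOBEC3D, 0.01 for APOBEC3F and 1.31 for APOBEC3G. The difference by medium ranged from -0.70 to 0.52 for APOBEC3B (0.56 in runs 3 to 5) and from -0.31 to 0.42 for APOBEC3F. The cause of these changes was not tested. Of the other values for single members, 647 kept their side of the threshold, 24 lost it and 19 changed sign. Depth limits APOBEC3A, APOBEC3D and APOBEC3H most, with 44, 32 and 40 of 45 libraries at 2 counts or fewer.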

Other observations

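The 12 neighbours of the cluster on chromosome 22 had a median r of 0.30 with APOBEC3B over the 15 lines (0.00 over all genes) and of -0.19 with APOBEC3C (0.01 over all genes). With APOBEC3B, 1 of the 12 was above 0.5 (GTPBP1, a GTP-binding protein, r = 0.534), against 3.25% of all genes. With APOBEC3F, 2 of the 12 were above 0.5, against 2.2% of all genes, and with APOBEC3D, 3 of the 12 were under -0.5, against 3.83%. RPL3, a ribosomal protein gene, was the least variable of the 12, from 291 ± 25.6 CPM (SD, n = 3) in BT-20 to 634 ± 15.7 in HCC1395, and MGAT3, a glycosyltransferase, was the most variable, from 0 CPM in MDA-MB-231 to 16.6 ± 0.587 in MDA-MB-157. HCC1143, the line highest in APOBEC3B, was also the highest of the 15 lines for GTPBP1 (62.7 ± 2.23 CPM), DNAL4 (77.5 ± 8.99), CBX6 (140 ± 10.5), CBX7 (14.6 ± 1.40) and PDGFB (21.4 ± 4.40). Those 5 genes were chosen for description after their values were seen. The other neighbours were highest elsewhere: JOSD1 and SUN2 in HCC70 (APOBEC3B 0.926 CPM), NPTXR and MGAT3 in MDA-MB-157, RPL3 in HCC1395, SYNGR1 in MDA-MB-468 and TAB1 in MDA-MB-453. The share of all genes highest in HCC1143 was not counted, so a link with APOBEC3B was not tested.

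Among the translesion polymerases, which copy past abasic sites, REV1 varied least over the lines, from 43.2 ± 2.62 CPM in BT-549 to 117 ± 2.61 in HCC1806, and POLI varied most, from 3.70 ± 1.40 in HCC1937 to 63.7 ± 2.45 in MDA-MB-453. TRIM22, an interferon-inducible restriction factor, ran from 0.42 ± 0.202 CPM in HCC1395 to 341 ± 87.9 in HCC1187, and its r was 0.237 with APOBEC3B and -0.405 with APOBEC3G.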
